A study of Macaca mulatta with 12 samples.

Results

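AEBP1, TTN, SNTB1 and MAST4 are 4 of the 22584 genes listed in a single-cell study of blood B cells from juvenile rhesus macaques aged 2 to 3 years, of Indian origin, healthy and unmanipulated. The 4 genes were chosen from their levels in the B cell subtypes that the authors annotated and from their levels by heavy chain class within a subtype, so both sets of levels are given below as descriptions without a test. Blood mononuclear cells of 6 animals, 2 males (batch 1) and 4 females (batch 2), were captured with a 5′ droplet kit that reads messenger RNA and, from the same cells, the B cell receptor. Sex and batch cannot be told apart. The animals are called male 1, male 2 and female 1 to female 4, and none was treated.

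The cell table held 13849 cells, of which 13324 fell into 12 named B cell subtypes and 525 into a cluster that the authors named Contamination. The animals contributed 563 to 3048 B cells and 3563778 to 19518978 unique molecular identifiers (UMIs, one per captured transcript), with a median of 4018 to 6736 UMIs per cell. Across the expression libraries 96 cell barcodes were found more than once. A heavy chain of 1 known class was assigned to 10293 B cells, 7913 of them unswitched (IgM or IgD) and 2380 switched (IgG, IgA or IgE). The other 3031 B cells enter the levels by subtype but no comparison by class.

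A B cell leaves the bone marrow with IgM and IgD on its surface. After it meets antigen it may become a memory cell, its heavy chain gene may be switched to IgG, IgA or IgE, and mutations may be added to its variable region, the stretch encoded by an IGHV gene. Memory cells that kept IgM and memory cells that were switched both circulate in blood, and mutation and switching do not always go together. Levels are given as CPM, a count scaled to library size: the UMIs of a gene were summed over the cells of 1 animal and divided by the UMIs of all named genes other than immunoglobulin genes. The kit reads transcripts near their 5′ end and the counts were not divided by length, so each gene is compared between cells and never with another gene.

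The 4 genes have little in common in what is known of them. AEBP1 (ENSMMUG00000002422) encodes adipocyte enhancer-binding protein, a carboxypeptidase-like protein known both as a transcriptional repressor and, in a secreted form, as a component of the extracellular matrix. TTN (ENSMMUG00000009038) encodes titin, the giant protein that acts as a molecular spring in the muscle sarcomere. SNTB1 (ENSMMUG00000002607) encodes beta-1-syntrophin, a cytoplasmic adaptor of the dystrophin-associated complex at the cell membrane. MAST4 (ENSMMUG00000005357) encodes a member of the microtubule-associated serine/threonine kinase family. In the human genome TTN is overlapped by an antisense gene, and whether strand was used in the counting is not given in the sources used here, so sense and antisense reads cannot be told apart for TTN.

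The 4 genes had been grouped as genes of IgM memory cells, and the deposited subtype most closely tied to them is M-MBC 1, with 2190 cells and a median of 4476.5 UMIs per cell. Of its cells with a known class, 64.3% were IgM, 27.9% IgD and 7.59% IgG. The summed level of 5 naive cell markers (TCL1A, FCER2, IL4R, BACH2 and FOXP1) was 1119 CPM in M-MBC 1 and 2488 CPM in Naive B cells 1. The summed level of the memory markers, 5 of 6 of which were in the table (COCH at 0), was 1433 CPM in M-MBC 1 (1078 to 2065 over the animals), against 357 CPM in Naive B cells 1 and 5204 CPM in C-MBC 1, a mostly switched subtype. M-MBC 1 therefore stood between Naive B cells 1 and C-MBC 1 in these markers. AEBP1 was about as high in Naive B cells 1 as in M-MBC 1, and MAST4 was higher in several other subtypes than in M-MBC 1, so the description as IgM memory genes does not hold for the 4 as a set and they are treated here gene by gene. Markers of other cells were present in M-MBC 1. The 10 T cell markers summed to 211 CPM (79.4 to 738 over the animals, none at 0), the 6 NK cell markers to 170.0 CPM (7.52 to 802) and the 7 platelet and red cell markers in the table to 455 CPM (14.1 to 1373). T and NK cell markers were not particular to M-MBC 1, with 235 CPM for T cell markers in Activated B cells and 229 CPM for NK cell markers in M-MZL BC. The platelet and red cell sum was highest in M-MBC 1. The part of all these markers in the levels was not tested.

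AEBP1 was highest in M-MBC 1 and in naive cells and close to 0 in switched memory subtypes. Its level in M-MBC 1 was 59.5 CPM in the lowest animal, 96.3 CPM at the median and 194 CPM in the highest, a mean of 103 ± 49.8 CPM (SD, n = 6 animals, as for every mean by subtype unless another n is given). In Naive B cells 1 the lowest, median and highest values were 54.8, 81.0 and 164 CPM, with a mean of 94.5 ± 41.1 CPM. The 2 ranges overlapped almost fully, and female 2 was the highest animal in both. The next levels were 83.7 ± 10.6 CPM in Naive B cells 3 (n = 4), 72.2 ± 75.5 CPM in M-MZL BC and 47.8 ± 32.3 CPM in Naive B cells 2, and each of these ranges overlapped that of M-MBC 1. M-MZL BC was spread widely, with 17.3 CPM in the lowest animal, 51.5 CPM at the median and 220.3 CPM in female 2. Below these came CD11c+ MBC 1 with 22.3 ± 6.95 CPM, Activated B cells with 19.7 ± 11.9 CPM and M-MBC 2 with 15.5 ± 8.96 CPM. No animal's level in those 3 subtypes reached the lowest level in M-MBC 1. In C-MBC 2, C-MBC 1 and CD11c+ MBC 2 AEBP1 averaged 2.19, 1.58 and 0.968 CPM, and Antibody-secreting cells (n = 3) held a single AEBP1 UMI.

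TTN was spread over more subtypes than AEBP1. Its means were highest in Naive B cells 3 (139 ± 174 CPM, n = 4) and Naive B cells 2 (87.6 ± 57.1 CPM), small clusters of 125 and 446 cells with a median of 1882 and 2571 UMIs per cell. Ribosomal protein genes took 4.54% and 3.42% of the UMIs in those clusters, against 21.6% in Naive B cells 1, and in Naive B cells 2 the memory markers summed to 1736 CPM and 17.6% of the 74 cells of known class were IgG, so that the name of Naive B cells 2 is not borne out by all markers. In Naive B cells 3 the memory markers summed to 253 CPM and 3.33% of the 30 cells of known class were IgG. In M-MBC 1 TTN was 41.7 CPM in the lowest animal, 59.0 CPM at the median and 122 CPM in the highest (mean 73.0 ± 35.7 CPM), and in M-MBC 2 these values were 32.8, 58.1 and 144 CPM (mean 67.2 ± 39.5 CPM). CD11c+ MBC 1 followed with 24.5, 45.0 and 116 CPM (mean 53.4 ± 36.0 CPM). The ranges of these 3 subtypes overlapped, and differences between them within animals were not tested. M-MZL BC (29.4 ± 22.3 CPM), Naive B cells 1 (28.9 ± 11.4 CPM) and Activated B cells (27.5 ± 21.2 CPM) lay lower, and in each of the 6 animals M-MBC 1 exceeded all 3. CD11c+ MBC 2 had 18.1 ± 16.5 CPM, C-MBC 1 7.19 ± 2.63 CPM and C-MBC 2 3.43 ± 5.97 CPM. The ranges of both C-MBC subtypes lay wholly below that of M-MBC 1, and no TTN UMI was found in Antibody-secreting cells.

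SNTB1 was concentrated in M-MBC 1 and CD11c+ MBC 1, beside the same 2 small naive clusters. In M-MBC 1 its lowest, median and highest levels were 44.5, 56.4 and 206 CPM (mean 83.5 ± 62.6 CPM), and in CD11c+ MBC 1 they were 14.0, 45.3 and 165 CPM (mean 62.1 ± 55.1 CPM). Male 1 was the highest animal in both, and 5 of 6 animals were higher in M-MBC 1. Naive B cells 2 had 97.4 ± 109 CPM and Naive B cells 3 had 65.4 ± 51.6 CPM (n = 4), with ranges that overlapped both. Levels were lower in M-MBC 2 (22.9 ± 20.2 CPM), Naive B cells 1 (20.8 ± 13.8 CPM), CD11c+ MBC 2 (15.3 ± 14.5 CPM), C-MBC 1 (9.70 ± 5.97 CPM), M-MZL BC (8.88 ± 6.15 CPM), Activated B cells (7.74 ± 6.52 CPM) and C-MBC 2 (1.99 ± 1.53 CPM). Of these, M-MBC 2 alone overlapped the range of M-MBC 1. Antibody-secreting cells held no SNTB1 UMI.

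MAST4 followed another order. Its lowest, median and highest levels were 25.8, 46.7 and 109 CPM in Activated B cells (mean 61.2 ± 35.3 CPM), 27.5, 59.0 and 74.5 CPM in M-MZL BC (53.0 ± 17.2 CPM) and 35.3, 43.5 and 71.0 CPM in M-MBC 2 (49.6 ± 14.5 CPM). The ranges of these 3 subtypes and of Naive B cells 2 (51.5 ± 33.5 CPM) overlapped, and differences between them within animals were not tested. In M-MBC 1 MAST4 was 4.35 CPM in the lowest animal, 14.2 CPM at the median and 44.5 CPM in female 4 (mean 18.2 ± 13.9 CPM), below all of Activated B cells, M-MZL BC and M-MBC 2 in 6 of 6 animals. CD11c+ MBC 1 had 12.3 ± 9.36 CPM, CD11c+ MBC 2 7.96 ± 7.04 CPM, C-MBC 1 4.53 ± 3.81 CPM and C-MBC 2 3.64 ± 3.22 CPM. In Naive B cells 1, where AEBP1 was near its highest, MAST4 amounted to 5 UMIs in 1614 cells (1.17 ± 1.90 CPM). It was not detected in Naive B cells 3 or Antibody-secreting cells, whose depth allows up to 15.0 and 16.0 CPM over all animals (3 UMIs, counting error only).

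**Figure D1:**
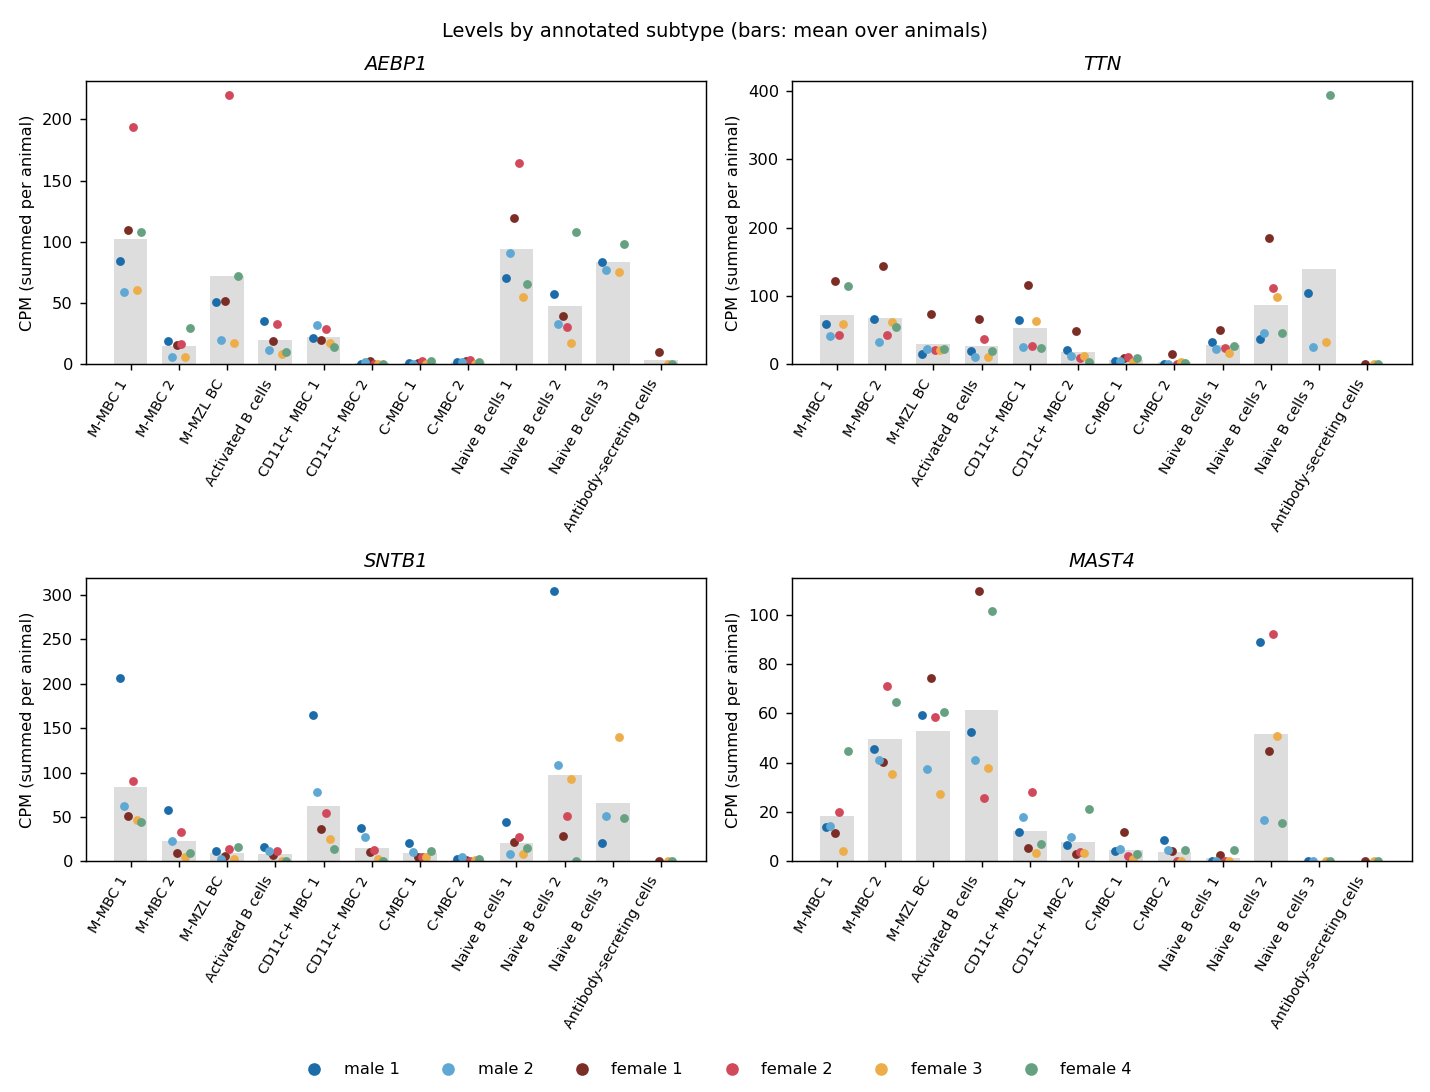
Level of each gene in CPM (vertical axis) in the 12 annotated subtypes (horizontal axis), with a point for each animal that had at least 10 cells and a grey bar at the mean. AEBP1 stood at 103 CPM in M-MBC 1 and 94.5 CPM in Naive B cells 1, whereas MAST4 stood at 18.2 CPM and 1.17 CPM in the same subtypes and between 49.6 and 61.2 CPM in Activated B cells, M-MZL BC and M-MBC 2.

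Within each animal, on the log2(CPM + 1) scale, M-MBC 1 exceeded the average of all other subtypes by 2.77 ± 0.43 for AEBP1, 2.55 ± 0.46 for SNTB1, 1.74 ± 0.53 for TTN and 0.66 ± 0.79 for MAST4 (SD, n = 6). The difference was positive in 6 of 6 animals for each gene, though only 0.0054 in the lowest animal for MAST4. Other subtypes stood near or above M-MBC 1 by the same measure for AEBP1, TTN and MAST4. For SNTB1 the other subtypes were lower in the mean. The nearest were Naive B cells 3 (2.03 ± 2.33, n = 4), CD11c+ MBC 1 (1.88 ± 0.33) and Naive B cells 2 (1.67 ± 2.40). Their ranges over animals overlapped that of M-MBC 1. AEBP1 had 2.78 in Naive B cells 3 (n = 4) and 2.66 in Naive B cells 1. TTN had 2.18 in Naive B cells 3 (n = 4) and 1.90 in Naive B cells 2. MAST4 had 2.63 in Activated B cells, 2.54 in M-MZL BC and 2.47 in M-MBC 2. These are the values that chose the genes.

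The levels came from a minority of cells in every subtype. After each cell had been thinned to 2000 UMIs, an AEBP1 UMI was found in 15.8% ± 6.08 of M-MBC 1 cells (28.3% unthinned, 91 shallower cells left out), 13.8% ± 5.26 of Naive B cells 1 (26.1% unthinned) and 0.547% of C-MBC 1 cells. SNTB1 was found in 11.6% ± 6.22 of M-MBC 1 cells (19.8% unthinned) and 9.43% ± 6.68 of CD11c+ MBC 1 cells, against 0.170% of C-MBC 2 cells. TTN was found in 10.5% ± 5.10 of M-MBC 1 cells (17.5% unthinned) and 10.3% ± 5.32 of M-MBC 2 cells, against 0.960% of C-MBC 1 cells. MAST4 was found in 8.47% ± 4.76 of Activated B cells, 7.92% ± 3.48 of M-MBC 2 cells, 7.84% ± 2.21 of M-MZL BC cells and 3.15% ± 2.95 of M-MBC 1 cells (4.60% unthinned), against 0.0654% of Naive B cells 1. The last share given for each gene comes from a subtype in which that gene was low. What free RNA in the droplets could give was not measured. The median depths were 4476.5 UMIs in M-MBC 1, 4087 in Naive B cells 1, 6184 in C-MBC 1 and 7052 in C-MBC 2. Within M-MBC 1 a TTN UMI was present in 8.96% of the AEBP1-positive cells and 9.26% of the AEBP1-negative cells, and a SNTB1 UMI in 11.1% and 12.5% of them (thinned cells, mean over 5 animals, higher in 3 and in 2 of 5 animals). A MAST4 UMI was present in 1.14% of the SNTB1-positive cells and 2.18% of the SNTB1-negative cells, lower in 4 of 5 animals. Whether these shares differ was not tested.

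Switched cells were then set beside unswitched cells of the same subtype and animal. TTN was lower on average in the switched cells of each of the 4 subtypes with 5 or more animals to compare. In CD11c+ MBC 1 (432 switched and 1399 unswitched cells) it had 33.3, 14.1, 52.2, 0, 36.4 and 34.0 CPM in switched cells of male 1, male 2 and female 1 to female 4, against 78.0, 28.2, 145, 41.2, 78.4 and 11.3 CPM in unswitched cells. Switched cells were lower in 5 of 6 animals, female 4 being the exception, and the ranges overlapped (28.3 ± 18.4 and 63.7 ± 48.1 CPM). In CD11c+ MBC 2, where 656 of the cells compared were switched and 302 unswitched, TTN had 6.45, 6.88, 26.3, 6.27 and 4.90 CPM in switched cells of male 1, male 2 and female 1 to female 3, against 45.7, 9.58, 105, 31.7 and 59.4 CPM in unswitched cells. It was lower in switched cells of 5 of 5 animals, with means of 10.2 ± 9.06 and 50.3 ± 35.8 CPM. In C-MBC 1 (637 switched and 176 unswitched cells) it had 0, 2.78, 8.01, 4.80 and 3.02 CPM in switched cells, against 33.6, 10.1, 20.5, 34.1 and 19.5 CPM in unswitched cells of the same animals. The 2 classes did not overlap there (3.72 ± 2.95 and 23.6 ± 10.2 CPM), although they rest on 18 and 21 UMIs. In M-MBC 1 (138 switched and 1672 unswitched cells) the means were 28.6 ± 24.1 CPM in switched and 70.5 ± 38.9 CPM in unswitched cells, lower in 5 of 5 animals.

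SNTB1 followed TTN in direction but not in every animal. In CD11c+ MBC 1 it had 109, 35.3, 23.2, 37.9, 26.8 and 11.3 CPM in switched cells of male 1, male 2 and female 1 to female 4, against 184, 73.8, 43.4, 64.2, 24.1 and 22.6 CPM in unswitched cells. Switched cells were lower in 5 of 6 animals, female 3 being the exception (40.7 ± 35.0 and 68.7 ± 60.2 CPM). Means were 13.0 ± 10.8 CPM in switched and 28.2 ± 16.8 CPM in unswitched cells of CD11c+ MBC 2 (lower in 5 of 5 animals), 5.15 ± 3.97 and 20.3 ± 21.3 CPM in C-MBC 1 (4 of 5) and 53.6 ± 37.8 and 95.5 ± 70.7 CPM in M-MBC 1 (4 of 5).

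AEBP1 remained high in the switched cells of M-MBC 1, with 42.2, 50.4, 65.2, 192 and 23.0 CPM in male 1, male 2 and female 1 to female 3, against 87.3, 69.5, 119, 217 and 65.5 CPM in their unswitched cells (74.5 ± 67.2 and 111 ± 62.4 CPM, 31 and 753 UMIs). Switched cells were lower in 5 of 5 animals, yet in 5 of 5 the switched cells of M-MBC 1 held more AEBP1 than either class of C-MBC 1 or CD11c+ MBC 2 in the same animal. Within CD11c+ MBC 1 its means were 15.4 ± 14.3 CPM in switched and 21.4 ± 14.3 CPM in unswitched cells, higher in 3 animals and lower in 3. MAST4 was lower in switched cells of CD11c+ MBC 2 in 5 of 5 animals (2.93 ± 2.45 and 12.4 ± 5.75 CPM), of CD11c+ MBC 1 in 5 of 6 (5.83 ± 4.91 and 15.5 ± 11.9 CPM) and of C-MBC 1 in 4 of 5 (3.11 ± 3.46 and 16.7 ± 16.1 CPM). In M-MBC 1 it was lower in 3 animals and higher in 2 (7.58 ± 8.90 and 12.1 ± 5.68 CPM). Of all genes tested between switched and unswitched cells, 0.604% were called in CD11c+ MBC 1 (0.363% lower in switched cells) and 0.418% in M-MBC 1 (edgeR, adjusted p below 0.05). The 4 genes were chosen on this contrast and nothing is read from those shares.

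**Figure D2:**
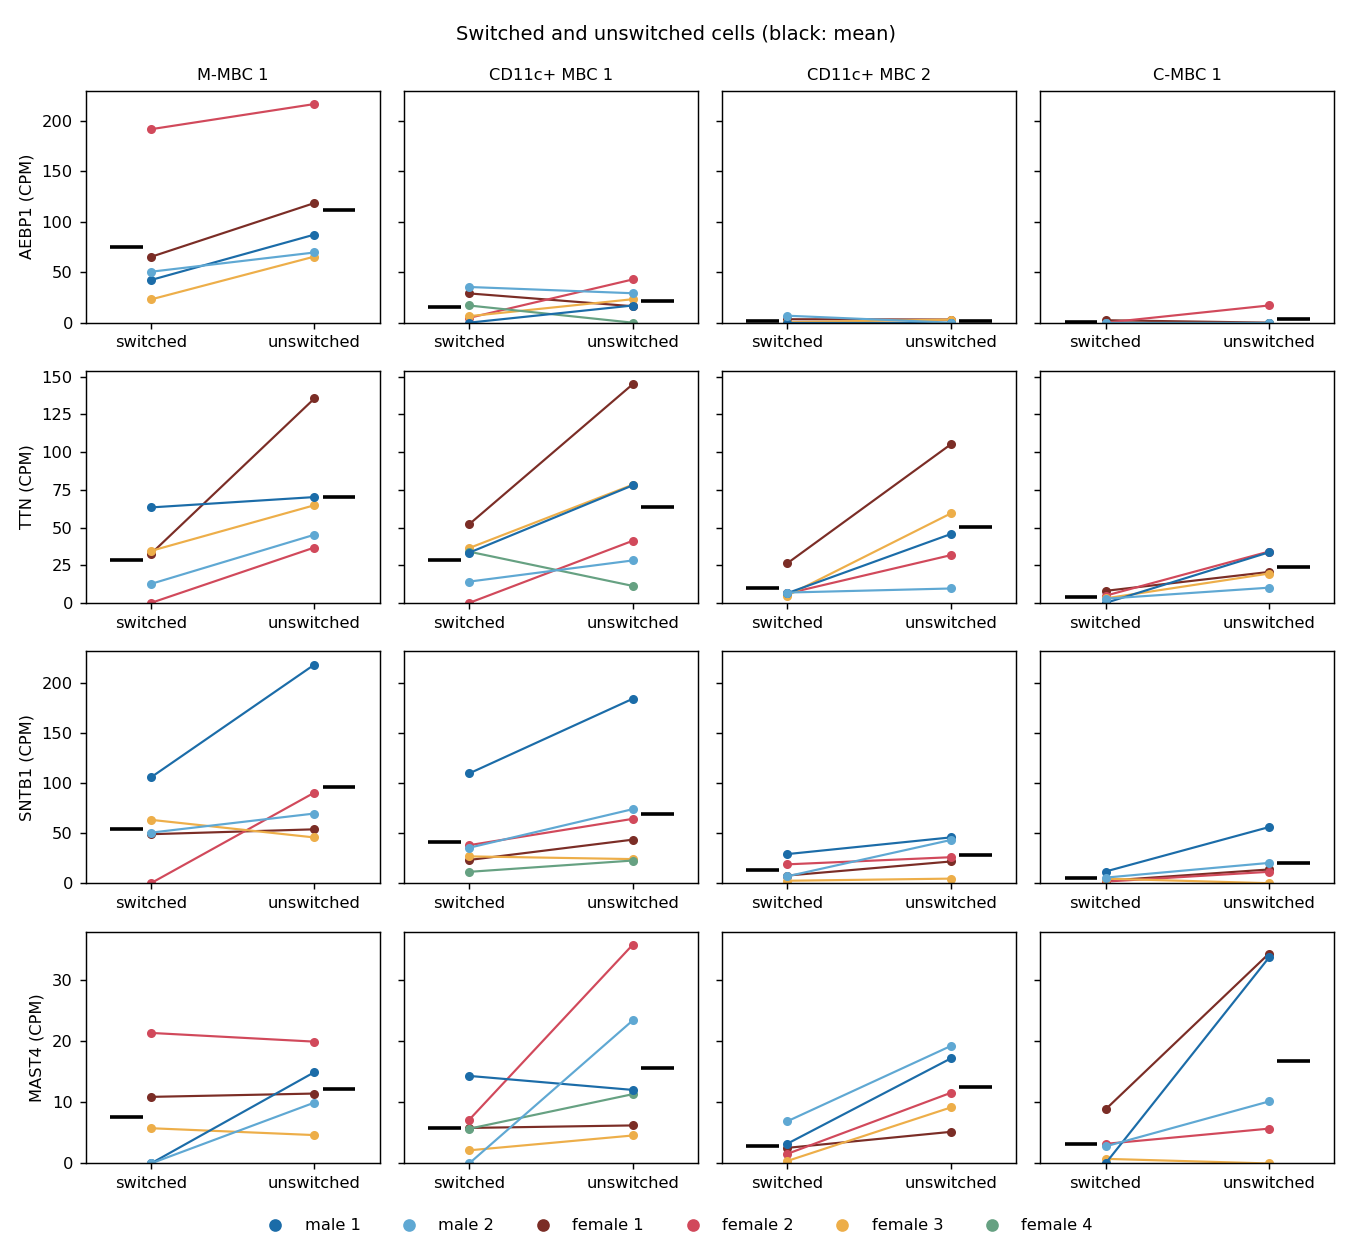
Level of each gene in CPM (vertical axes, shared along a row) in switched and unswitched cells of 4 subtypes, with a line for each animal and a black bar at the mean. TTN lay below its unswitched level in 5 of 5 animals in M-MBC 1, CD11c+ MBC 2 and C-MBC 1, and in 5 of 6 in CD11c+ MBC 1.

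Unswitched cells carry either IgM or IgD as the class read from their heavy chain transcript. In CD11c+ MBC 1, IgD cells had more AEBP1 than IgM cells (36.1 ± 13.3 and 20.8 ± 8.01 CPM, higher in 5 of 5 animals) and more SNTB1 (104 ± 92.0 and 66.8 ± 47.7 CPM, 5 of 5). TTN (74.0 ± 52.7 and 74.4 ± 45.4 CPM) and MAST4 (14.7 ± 14.6 and 17.4 ± 14.4 CPM) were higher in IgD cells of 2 of 5 animals. In M-MBC 1 the IgD and IgM means were 115 and 106 CPM for AEBP1, 113 and 86.8 CPM for SNTB1, 71.3 and 69.7 CPM for TTN and 11.8 and 14.3 CPM for MAST4, and the animals were split for each gene (3, 4, 2 and 2 of 5 higher in IgD cells).

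The rule that chose the genes used the class of the heavy chain but not mutations in its variable region, so the levels within unswitched cells were tested against those. For each unswitched cell the IGHV region was compared with the most similar of 323 putative unmutated sequences of the same animal and IGHV gene, and a cell was called mutated where at least 1 base per 100 differed. Values were obtained for 7247 unswitched cells. Mutated cells made up 17.2% of the unswitched cells of M-MBC 1 (272 mutated, 1312 unmutated), 25.8% of CD11c+ MBC 1 (339 and 973), 68.8% of M-MBC 2 (435 and 197), 68.7% of M-MZL BC (817 and 372) and 1.69% of Naive B cells 1 (23 and 1335). Mutated and unmutated cells of the same subtype and 5 animals were then compared in a fit over all genes with the animal as a block. Female 4 had too few cells of one kind and is not in these fits. M-MZL BC was added to the comparison after the levels had been seen.

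SNTB1 fell sharply in mutated cells of the 2 subtypes in which it was high. In M-MBC 1 it had 37.6, 27.2, 5.57, 38.0 and 27.5 CPM in mutated cells of male 1, male 2, female 1, female 2 and female 3, against 256, 83.1, 64.2, 117 and 47.5 CPM in unmutated cells. Every mutated value lay below every unmutated one. The means were 27.2 ± 13.2 and 114 ± 83.8 CPM, a log2 fold change of -2.10 ± 0.26 (SE, adjusted p = 6.83e-09, edgeR quasi-likelihood test), in a comparison where 0.686% of the genes tested were called lower and 1.42% in either direction. The values in CD11c+ MBC 1 were 37.2, 59.1, 16.9, 26.1 and 2.44 CPM in mutated cells of the same animals, against 245, 77.5, 53.5, 92.8 and 28.2 CPM in unmutated cells. Mutated cells were lower in 5 of 5 animals, although the ranges overlapped. The means were 28.4 ± 21.4 and 99.3 ± 84.9 CPM, a log2 fold change of -1.86 ± 0.24 (adjusted p = 4.41e-07, edgeR), beside 0.884% of genes called lower and 2.09% in either direction. Leaving out 1 animal at a time kept both calls, with fold changes of -2.27 to -1.83 in M-MBC 1 and -2.29 to -1.44 in CD11c+ MBC 1.

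SNTB1 was too low in the other 2 subtypes to pass the filter on low counts. In M-MBC 2 it averaged 16.5 ± 17.1 CPM in mutated and 34.7 ± 30.3 CPM in unmutated cells, lower in 4 of 5 animals, and without the filter the log2 fold change was -1.48 ± 0.43 (adjusted p = 0.196, edgeR). In M-MZL BC it averaged 6.22 ± 5.36 and 12.7 ± 16.6 CPM, lower in 3 of 5 animals (log2 fold change without the filter -0.38 ± 0.56, adjusted p = 0.976, edgeR). Whether these changes differed from that in M-MBC 1 was not tested.

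MAST4 was higher in mutated cells of all 4 subtypes tested. In M-MZL BC it had 70.0, 41.6, 92.5, 52.1 and 35.7 CPM in mutated cells of male 1, male 2, female 1, female 2 and female 3, against 33.6, 7.56, 30.0, 20.8 and 3.58 CPM in unmutated cells. The 2 sets of values did not overlap. The means were 58.4 ± 23.1 and 19.1 ± 13.3 CPM, a log2 fold change of 1.50 ± 0.24 (adjusted p = 2.91e-06, edgeR), where 0.257% of the genes tested were called higher and 0.463% in either direction. Leaving out each animal kept the call, with fold changes of 1.39 to 1.85.

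In the other 3 subtypes MAST4 did not pass the filter on low counts, so its values there rest on the same fit without that filter. In M-MBC 2 it had 63.3, 40.9, 51.2, 80.5 and 55.8 CPM in mutated cells, against 24.8, 24.7, 19.8, 30.0 and 17.7 CPM in unmutated cells of the same animals. The sets did not overlap (58.4 ± 14.8 and 23.4 ± 4.83 CPM), and the log2 fold change was 1.32 ± 0.32 (adjusted p = 0.0203, edgeR without the filter), beside 0.233% of genes called (0.0989% higher among the genes that passed the filter). In M-MBC 1 it had 18.8, 32.6, 27.8, 66.5 and 34.4 CPM in mutated cells, against 13.0, 1.48, 6.62, 3.21 and 1.51 CPM in unmutated cells. Again the sets did not overlap, although the counts behind them were small, with 38 UMIs in mutated and 28 in unmutated cells. The means were 36.0 ± 18.1 and 5.17 ± 4.85 CPM and the log2 fold change 2.61 ± 0.44 (adjusted p = 1.45e-06, edgeR without the filter), beside 1.01% of genes called (0.736% higher among the genes that passed the filter). Among CD11c+ MBC 1 cells MAST4 had 20.3, 80.3, 11.3, 52.1 and 14.6 CPM in mutated cells (57 UMIs), against 7.46, 5.26, 2.33, 7.60 and 1.60 CPM in unmutated cells (19 UMIs). Mutated cells were higher in 5 of 5 animals without overlap (35.7 ± 29.7 and 4.85 ± 2.81 CPM, log2 fold change 2.77 ± 0.40, adjusted p = 6.09e-09, edgeR without the filter), beside 1.45% of genes called (1.21% higher among the genes that passed the filter).

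TTN fell in mutated cells of M-MZL BC, with 15.2, 9.46, 41.2, 17.4 and 5.50 CPM, against 16.0, 22.7, 153, 41.7 and 64.5 CPM in unmutated cells of the same animals. Mutated cells were lower in 5 of 5 animals and the ranges overlapped, male 1 showing almost no difference. The means were 17.8 ± 13.9 and 59.5 ± 55.4 CPM, a log2 fold change of -1.63 ± 0.26 (adjusted p = 5.55e-06, edgeR), beside 0.206% of genes called lower. DESeq2 gave an adjusted p of 0.122 for the same difference. In M-MBC 1 TTN had 25.1, 0, 111, 28.5 and 20.7 CPM in mutated cells, against 80.6, 59.4, 136, 40.2 and 70.9 CPM in unmutated cells. It was lower in 5 of 5 animals but did not pass the threshold (37.1 ± 43.0 and 77.5 ± 36.2 CPM, log2 fold change -0.83 ± 0.25, adjusted p = 0.107, edgeR). Without female 1, the highest animal, the log2 fold change was -1.67 (adjusted p = 0.00494, edgeR), and with a cutoff of 2 differing bases per 100 it was -1.79 (adjusted p = 0.00111, edgeR). TTN averaged 65.5 ± 44.5 CPM in mutated and 102 ± 74.1 CPM in unmutated cells of M-MBC 2 (log2 fold change -0.62 ± 0.20, adjusted p = 0.304, edgeR), where 0.321% of genes were called. The CD11c+ MBC 1 means were 65.8 ± 42.3 and 78.5 ± 46.0 CPM (log2 fold change -0.24, adjusted p = 0.68, edgeR), with lower values in 3 of 5 animals.

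AEBP1 fell in mutated cells of M-MBC 1 and M-MZL BC. In M-MBC 1 it had 62.7, 27.2, 69.6, 166 and 62.0 CPM in mutated cells, against 92.3, 86.1, 129.8, 247 and 64.9 CPM in unmutated cells of the same animals. It was lower in 5 of 5 animals and the ranges overlapped (77.5 ± 52.3 and 124 ± 72.8 CPM, log2 fold change -0.69 ± 0.18, adjusted p = 0.0223, edgeR). The call was kept without male 1 and without female 3. The adjusted p was 0.25 without female 1, 0.0677 without female 2 and 0.129 without male 2, and 0.46 in DESeq2. In M-MZL BC AEBP1 had 43.3, 11.3, 50.0, 181 and 9.62 CPM in mutated cells, against 67.2, 45.4, 65.1, 326 and 28.7 CPM in unmutated cells. It was again lower in 5 of 5 animals, with female 2 far above the rest in both kinds of cell (59.0 ± 70.5 and 107 ± 124 CPM, log2 fold change -0.80 ± 0.19, adjusted p = 0.0151, edgeR). That adjusted p was 0.113 without female 2, 0.066 without female 3, 0.0517 without male 1 and 0.100 without male 2, and 0.726 in DESeq2. The means in CD11c+ MBC 1 were 18.8 ± 14.0 CPM in mutated and 28.9 ± 10.7 CPM in unmutated cells, lower in 5 of 5 animals but not called (log2 fold change -0.63 ± 0.29, adjusted p = 0.374, edgeR). In M-MBC 2 they were 14.1 and 18.4 CPM, and AEBP1 did not pass the filter.

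**Figure D3:**
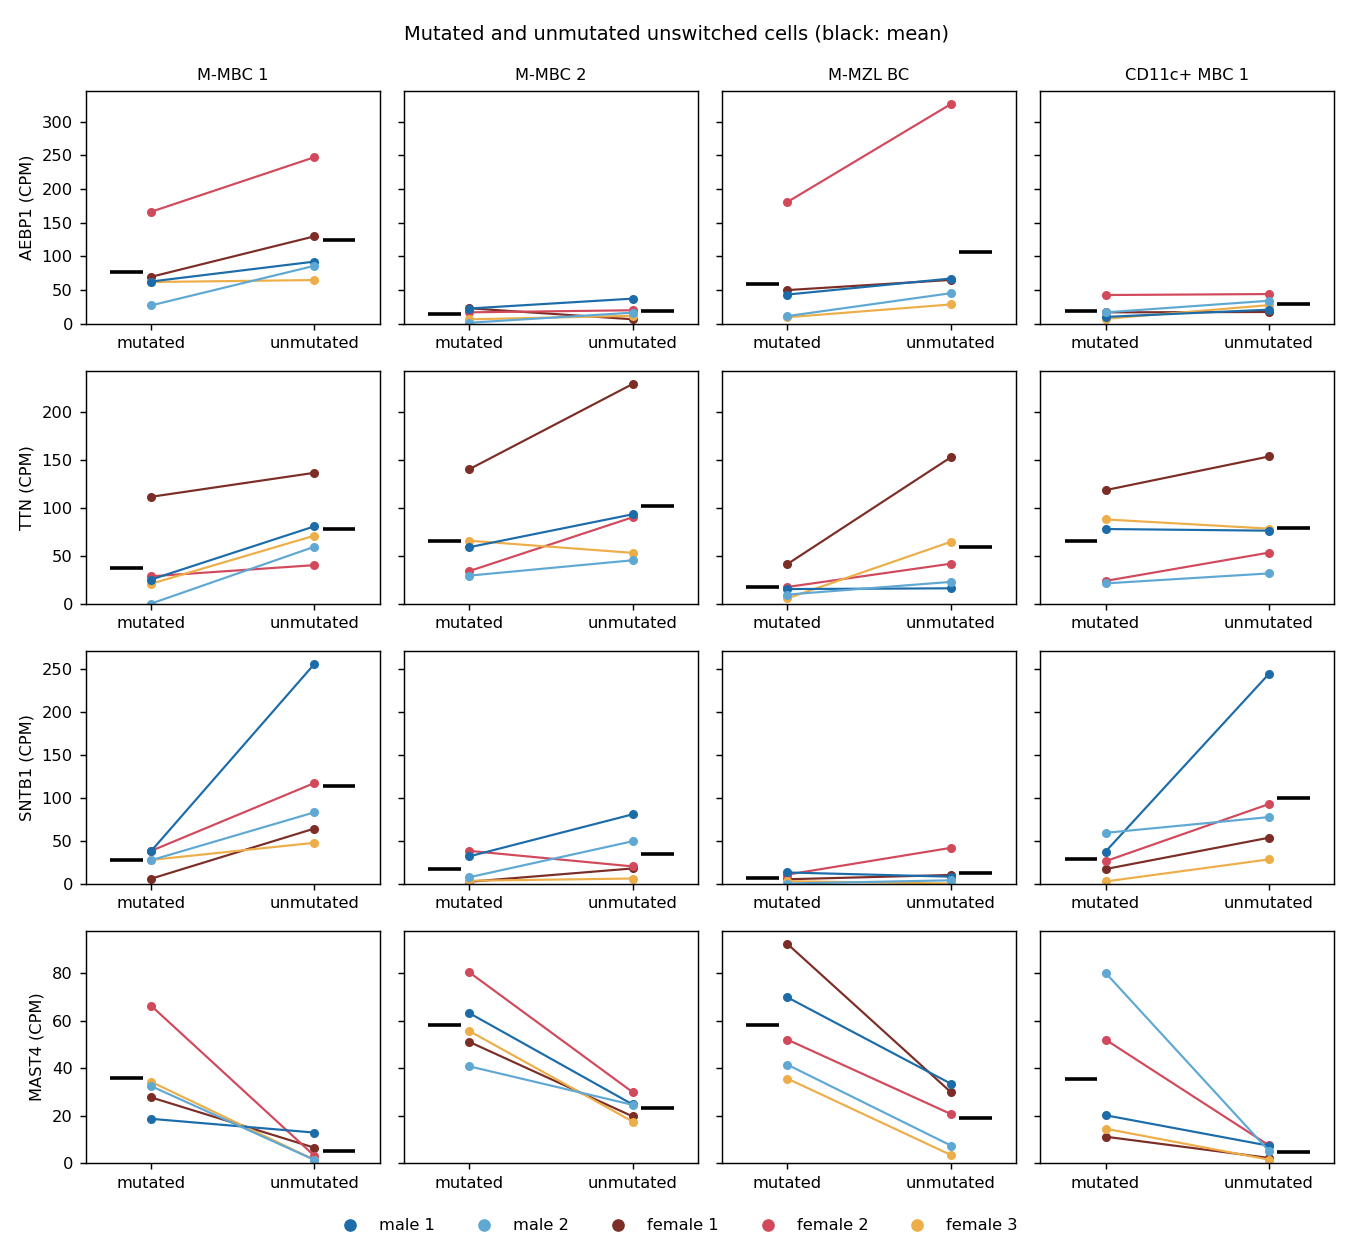
Level of each gene in CPM (vertical axes, shared along a row) in mutated and unmutated unswitched cells of 4 subtypes, with a line for each of 5 animals and a black bar at the mean. SNTB1 lay at 27.2 CPM in mutated and 114 CPM in unmutated cells of M-MBC 1, while MAST4 lay at 36.0 CPM in mutated and 5.17 CPM in unmutated cells of the same subtype and ran the same way in all 4 subtypes drawn.

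Depth did not separate the 2 kinds of cell by much. The median UMIs per cell were 4199 in mutated and 4555.5 in unmutated cells of M-MBC 1, 5497 and 5495 in CD11c+ MBC 1, 6023 and 6567 in M-MBC 2 and 5201 and 5087.5 in M-MZL BC. IgD cells made up 25.7% of mutated and 30.9% of unmutated cells in M-MBC 1, and 23.6% and 28.1% in CD11c+ MBC 1. Several marker genes moved with mutation. The activation marker CD86 was higher in mutated cells of M-MBC 1 (233 and 101 CPM, log2 fold change 1.30 ± 0.15, adjusted p = 7.78e-09, edgeR) and of CD11c+ MBC 1 (491 and 262 CPM, 0.91, adjusted p = 3.22e-10), and BACH2, a transcription factor that restrains plasma cell differentiation, was lower in mutated cells of M-MBC 1 (455 and 649 CPM, -0.56, adjusted p = 0.00202) and M-MBC 2 (132 and 226 CPM, -0.78, adjusted p = 0.0276). Of the naive marker list, DESeq2 called 1 gene in M-MBC 1 and 0 in M-MBC 2, where edgeR called 0.222% of all genes lower. CD3D, a component of the T cell receptor complex, was higher in mutated cells of M-MBC 1 (44.7 and 17.5 CPM, 1.29, adjusted p = 0.00898, edgeR), the single T cell marker of 10 that passed the filter there. DESeq2 called 0 T cell markers in M-MBC 1. In CD11c+ MBC 1, edgeR called 2 of the 3 T cell markers tested higher in mutated cells, CD3D (44.8 and 17.7 CPM, adjusted p = 0.00018) and CD3G (34.9 and 12.7 CPM, adjusted p = 0.00119), as well as CST3 among 2 monocyte markers tested (30.8 and 13.5 CPM, adjusted p = 0.0313). DESeq2 called 1 T cell marker and 0 monocyte markers there. Of all genes tested in CD11c+ MBC 1, edgeR called 1.21% higher and 0.884% lower in mutated cells. Of the 5 B cell markers, 3 were called lower in mutated cells of CD11c+ MBC 1 by edgeR and 1 by DESeq2 (median log2 fold change -0.25). Among the 3 were CD79A (1964 and 2341 CPM, adjusted p = 0.00218, edgeR) and MS4A1 (1318 and 1554 CPM, adjusted p = 0.00487, edgeR). Of the 4 memory markers tested there, edgeR called 2 higher, CD86 being 1 of them, and DESeq2 called 1. Of the 5 markers on the B cell list, in M-MBC 1 edgeR and DESeq2 called 0, 4 had an unadjusted p below 0.05, and the median log2 fold change was -0.25. JCHAIN, which encodes the joining chain of secreted IgM and IgA, was higher in mutated cells of M-MBC 1 (higher in 4 of 5 animals, adjusted p = 0.00431, edgeR). It was 1 of 3 plasma cell markers tested there, and DESeq2 called 0 of them. Of all genes tested in M-MBC 1, edgeR called 0.736% higher and 0.686% lower in mutated cells. Of the 3 platelet and red cell markers tested in M-MZL BC, edgeR called PF4 higher in mutated cells, beside 0.257% of all genes, and DESeq2 did not. The part of these markers in the results for the 4 genes was not tested.

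When unswitched cells were divided more finely by the number of differing bases, MAST4 and SNTB1 ran in opposite directions. In cells with 0 differing bases, above 0 and under 1 per 100, 1 to 3 per 100, and 3 or more per 100, MAST4 averaged 3.60, 16.7, 27.9 and 66.6 CPM in M-MBC 1 and 2.39, 13.6, 21.7 and 61.0 CPM in CD11c+ MBC 1. In M-MBC 2 it averaged 19.1, 23.8, 55.6 and 62.5 CPM, and in M-MZL BC 9.77, 30.8, 45.1 and 77.9 CPM. In each of these 4 subtypes the mean was higher in each successive bin. A bin held 4 or 5 animals in M-MBC 1 and M-MBC 2, 5 in CD11c+ MBC 1 and 5 or 6 in M-MZL BC. Successive means therefore did not always rest on the same animals, and the steps between them were not tested. In Activated B cells, where MAST4 was highest, it averaged 8.73, 64.0 and 56.5 CPM in the 3 bins above 0, over 2 to 5 animals a bin, and in CD11c+ MBC 2 it averaged 4.07, 0, 6.23 and 24.4 CPM in the 4 bins, over 2 to 4 animals, so the order did not hold in those subtypes. Mutated and unmutated Activated B cells of 4 animals had 41.5 ± 19.7 and 37.7 ± 50.0 CPM, higher in 3 of 4, and were not tested. The spread was wide in the highest bin of M-MBC 1 (SD 58.4 CPM), which held 75 cells of 4 animals.

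SNTB1 averaged 124, 36.6, 32.5 and 10.4 CPM over the same bins in M-MBC 1 and 113, 54.3, 33.8 and 16.2 CPM in CD11c+ MBC 1. The largest step in M-MBC 1 lay between cells with 0 differing bases (1148 cells, 495 UMIs) and cells with fewer than 1 per 100 (157 cells, 20 UMIs), a distinction that the cutoff of 1 does not make. In M-MBC 2 the bins averaged 55.7, 13.7, 17.6 and 12.2 CPM and in M-MZL BC 13.1, 12.5, 15.2 and 5.74 CPM. TTN averaged 81.0, 49.2, 47.1 and 15.8 CPM in M-MBC 1 and 64.6, 53.0, 14.7 and 21.3 CPM in M-MZL BC, but 82.0, 55.8, 59.1 and 80.1 CPM in CD11c+ MBC 1, where the ends were alike. AEBP1 averaged 128, 96.7, 76.1 and 89.0 CPM in M-MBC 1 and 125, 82.2, 70.3 and 37.3 CPM in M-MZL BC.

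**Figure D4:**
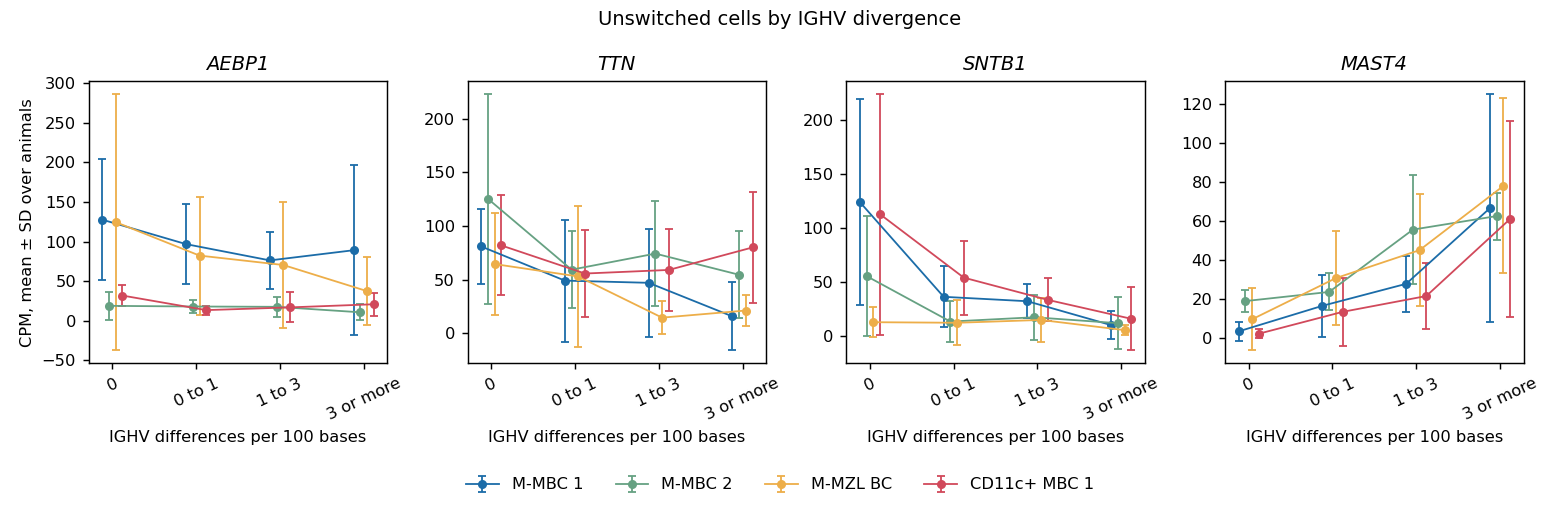
Mean level in CPM (vertical axis, bars are the SD over animals) of each gene in unswitched cells, by differing bases per 100 in the IGHV region (horizontal axis), with a line for each of 4 subtypes. A mean rests on 4 to 6 animals, not always the same ones in successive bins. The mean of MAST4 was higher in each successive bin of the 4 subtypes drawn, from 3.60 CPM to 66.6 CPM in M-MBC 1. SNTB1 stood at 124 CPM in M-MBC 1 cells with no differing base and at 36.6 CPM or less in the others.

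The same division was possible in the switched cells of CD11c+ MBC 1 (203 mutated and 171 unmutated cells of 5 animals). SNTB1 had 21.1, 0, 14.9, 12.2 and 7.92 CPM in mutated switched cells of male 1, male 2, female 1, female 2 and female 3, against 193, 70.1, 37.4, 58.8 and 41.9 CPM in unmutated switched cells. The sets did not overlap (11.2 ± 7.88 and 80.3 ± 64.5 CPM, 11 and 59 UMIs). TTN had 10.5, 0, 19.8, 0 and 7.92 CPM in mutated switched cells, against 55.2, 28.0, 105, 0 and 59.1 CPM in unmutated switched cells. It was lower in 4 animals and at 0 in both kinds of cell of female 2 (7.65 ± 8.27 and 49.4 ± 39.0 CPM, 8 and 53 UMIs). MAST4 was found in mutated switched cells with 9 UMIs and in unmutated ones with 0, whose depth allows up to 3.19 CPM. AEBP1 averaged 14.3 ± 16.3 and 15.2 ± 17.7 CPM. In M-MBC 1, with 46 mutated and 59 unmutated switched cells of 3 animals, SNTB1 averaged 14.1 and 81.3 CPM (lower in 3 of 3) and TTN 0 and 45.7 CPM (0 and 13 UMIs), and MAST4 had 3 and 0 UMIs. In CD11c+ MBC 2, with 414 mutated and 48 unmutated switched cells of 3 animals, SNTB1 averaged 2.05 and 26.1 CPM and TTN 7.08 and 60.1 CPM. None of these values from switched cells was tested.

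Class and mutation could thus be set side by side within CD11c+ MBC 1. SNTB1 averaged 80.3 CPM in switched and 99.3 CPM in unswitched cells among the unmutated ones, and 11.2 and 28.4 CPM among the mutated ones, lower in switched cells of 4 of 5 animals each time. TTN averaged 49.4 CPM in switched and 78.5 CPM in unswitched cells among the unmutated ones, and 7.65 and 65.8 CPM among the mutated ones, lower in switched cells of 5 of 5 animals each time. Unmutated switched cells therefore held more SNTB1 than mutated unswitched cells in the means, whereas for TTN the means ran the other way.

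Neither the light chain nor the sex of the animal gave a called difference in M-MBC 1. Between kappa and lambda cells (853 and 728 unswitched cells of 5 animals) the log2 fold changes were 0.09 for AEBP1, 0.23 for TTN and -0.03 for SNTB1, with an adjusted p of 0.996 for each (edgeR), where 0.0316% of genes were called. MAST4 did not pass the filter in this comparison. Between males and females 0.417% of genes were called. SNTB1 had 206 and 62.2 CPM in the 2 males, against 50.6, 90.3, 46.7 and 44.5 CPM in the 4 females (134 and 58.0 CPM, log2 fold change 1.34 ± 0.42, adjusted p = 0.26, edgeR). Male 1 stood far above the rest and male 2 lay within the range of the females. Without male 2 the log2 fold change was 1.96 (adjusted p = 0.0299) and without male 1 it was 0.25 (adjusted p = 0.99), in edgeR fits that assume the lone male to vary like the females. The log2 fold changes of AEBP1 (-0.54, adjusted p = 0.579), TTN (-0.54, adjusted p = 0.653) and MAST4 (0.13, adjusted p = 0.958) were not called either.

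Across the means of the 12 subtypes, on the log2(CPM + 1) scale, TTN and SNTB1 were most alike, with a Pearson r of 0.91, followed by AEBP1 with TTN (0.78) and AEBP1 with SNTB1 (0.72). MAST4 was less like the other genes, with r of 0.48 with TTN and 0.22 with both SNTB1 and AEBP1. Without Naive B cells 2 and 3, over 10 subtypes, the r of MAST4 was 0.68 with TTN, 0.38 with SNTB1 and 0.39 with AEBP1. The points share their libraries and these values are descriptions. Antibody-secreting cells, with 43 cells of 3 animals, 1 AEBP1 UMI and none of the other 3 genes, were a point in both sets of subtypes. The part of that point in the r values was not tested. Among 6130 genes with at least a moderate mean level, those most like AEBP1 over the 12 subtypes were ARHGAP9 (r = 0.95), then PGM2L1, RNF144A, JADE3 and TMEM123. ARHGAP9 averaged 124 CPM in M-MBC 1 and 126 CPM in Naive B cells 1, against 55.1 CPM in CD11c+ MBC 2. Those most like TTN were EHD4 (0.96), an endocytic ATPase gene, then MCTP2, CHD3, CLEC17A and ATP2A3. Those most like SNTB1 were CERK (0.90), the ceramide kinase gene, then ATP2A3, HIP1R, LDB2 and ADARB1. Those most like MAST4 were SUSD1 (0.96), ATRNL1 (0.92), PDCD1, TYROBP and SKAP1. ATRNL1 averaged 266 CPM in M-MBC 2, 216 CPM in M-MZL BC and 198 CPM in Activated B cells, against 48.9 CPM in M-MBC 1 and 22.1 CPM in Naive B cells 1. Over the 10 subtypes the genes most like SNTB1 were others (BIRC2, RCOR1, LILRB1, PNMA1 and KDM4B), whereas SUSD1, ATRNL1 and TYROBP stayed among the 5 most like MAST4 and ARHGAP9, RNF144A and JADE3 among those most like AEBP1.

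Few genes that work with the 4 proteins elsewhere were high enough in B cells to be tested against mutation. In M-MBC 1, 4 of the 16 genes of the dystrophin-associated complex, 6 of the 28 genes for sarcomere proteins and titin partners, and 4 of the 13 genes for carboxypeptidases and AEBP1 partners were high enough to be tested. None was called by edgeR, beside 1.42% of all genes tested, or by DESeq2, and 1, 0 and 1 of them had an unadjusted p below 0.05. The medians of their log2 fold changes were -0.14, -0.02 and 0.00, beside a median of 0.00 over all genes tested. DMD and UTRN were picked as examples after their values were seen. DMD, which encodes dystrophin, had 66.1 CPM in mutated and 73.9 CPM in unmutated cells (log2 fold change -0.11, adjusted p = 0.93, edgeR). UTRN, which encodes its relative utrophin, had 170.0 and 193 CPM (-0.18, adjusted p = 0.744, edgeR). The kinase gene MAPK3, whose product interacts with AEBP1 in mouse cells, was the single called gene of these 3 lists over all comparisons, in CD11c+ MBC 1. It had 35.7 ± 13.7 CPM in mutated and 17.8 ± 6.31 CPM in unmutated cells, higher in 5 of 5 animals (log2 fold change 1.02 ± 0.26, adjusted p = 0.0173, edgeR, beside 2.09% of all genes called), and it was not called by DESeq2.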

How the data were processed

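The authors deposited raw UMI counts per gene and cell, a table of cell labels with the subtype names used here and a percent of mitochondrial counts, and assembled receptor contigs, per the file headers. The submitters' processing notes name Seurat 5.0.1, R 4.3.1 and Cell Ranger 9.0.1; genome build, strand setting and doublet treatment are not given in the sources used here, and no doublet caller was run. Unnamed identifiers (14.9% of UMIs) and immunoglobulin genes (0.186%) were left out, which kept 16748 genes.

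Deposited counts were summed per animal and cell group of at least 10 cells. edgeR 4.0.16 (R 4.3.3; filterByExpr, TMM, quasi-likelihood F test, animal as block) gave p-values adjusted over all genes tested (Benjamini-Hochberg), called below 0.05. DESeq2 1.42.0 was an alternative. The edgeR fit was tested on simulated counts that held no differences between animals, so the use of the animal as a block was not put to the test. Samples were paired because each animal gave both kinds of cell. Named genes are the 4 genes, the 5 most like each, and called members of related lists (2 more were picked after their values were seen); 1 related list is not reported here. The members and lists were chosen with earlier results of these data known.

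IGHV divergence was the smallest number of differing bases per 100, from framework 1 to framework 3, against sequences shared by at least 3 unswitched cells with at least 2 different CDR3s in the same animal and IGHV gene. Promoter sequences were not used here. Intervals and detection limits cover counting error only. In fits with the animal as a block, p-values rest in part on how the difference between the 2 kinds of cell varied over the 5 or 6 animals. They also rest on the variability of all genes in the fit, toward which that of each gene is drawn. A very small p-value is therefore not a measure of a gene's own spread over so few animals. For males against females the p-values rest on the spread between animals of the same sex, moderated in the same way.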

Additional observations from a re-analysis of the deposited data

Results flagged for a closer look

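Of 76 groups of 4 to 6 animals looked at for a value standing far from the rest, 13 held one. Chance would give about 1 in 20 if the groups were independent. They share animals and cells, so no excess can be read from this count. The high values fell on few animals. Female 2 stood apart for AEBP1, with 194 CPM in M-MBC 1, 220.3 CPM in M-MZL BC, 181 and 326 CPM in mutated and unmutated cells of M-MZL BC and 42.6 CPM in mutated cells of CD11c+ MBC 1. Female 1 stood apart for TTN, with 144 CPM in M-MBC 2, 74.5 CPM in M-MZL BC, 15.3 CPM in C-MBC 2, 111 CPM in mutated cells of M-MBC 1 and 229 CPM in unmutated cells of M-MBC 2. Male 1 stood apart for SNTB1, with 206 CPM in M-MBC 1 and 304 CPM in Naive B cells 2, and female 2 did so with 41.7 CPM in unmutated cells of M-MZL BC.

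The 525 cells that the authors named Contamination enter no comparison above, and the 4 genes were detected there as well. AEBP1 had 47.9 CPM, TTN 47.3 CPM, SNTB1 45.6 CPM and MAST4 11.3 CPM, where 3 UMIs would be 1.69 CPM.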

How the results depend on the processing

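Called genes were 85 in M-MBC 1, 130 in CD11c+ MBC 1, 13 in M-MBC 2 and 27 in M-MZL BC for mutated against unmutated cells, 26 in M-MBC 1 and 40 in CD11c+ MBC 1 for switched against unswitched cells, 2 for kappa against lambda and 36 for males against females. In the same order DESeq2 called 34, 36, 3, 5, 2, 11, 0 and 78 genes, with 41 genes at an unadjusted p below 0.05 for kappa. The edgeR fits without the animal as a replicate block called 0 genes in all 7 comparisons that had one (25 to 113 genes at an unadjusted p below 0.05), and there every call of the 4 genes was lost. The filter on low counts mattered: without it 134 genes were called in M-MBC 1 and 29 in M-MBC 2 (mutated), 64 in CD11c+ MBC 1 (switched), 7 for kappa and 110 for males. With unnamed identifiers and immunoglobulin genes kept, the counts were 8 in M-MBC 2 (mutated), 34 for kappa and 54 for males. Leaving out each animal in turn gave, for mutated cells, 59 to 87 genes in M-MBC 1, 67 to 131 in CD11c+ MBC 1, 4 to 14 in M-MBC 2 and 14 to 27 in M-MZL BC. It gave 10 to 30 (M-MBC 1) and 14 to 56 (CD11c+ MBC 1) for switched cells, 0 to 5 for kappa and 14 to 156 for males. The cause of these shifts was not tested.

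Among the 4 genes, the called differences of SNTB1 in M-MBC 1 and CD11c+ MBC 1 and of MAST4 in M-MZL BC kept their direction and call under every alternative run except the fit without the block. That of TTN in M-MZL BC was also lost in DESeq2, and without female 1 TTN did not pass the filter there. AEBP1 lost its calls in DESeq2, with a cutoff of 2 differing bases per 100 (adjusted p = 0.374 in M-MBC 1 and 0.145 in M-MZL BC, edgeR) and without single animals. The log2 differences that changed sign were small: SNTB1 in switched against unswitched cells of M-MBC 1 with at least 20 cells per sum (0.046, against -0.43), SNTB1 in kappa against lambda cells (0.020 in DESeq2 and -0.15 to 0.12 with animals left out, against -0.03) and MAST4 in males against females (-0.026 in DESeq2 and -0.29 to 0.48 with animals left out, against 0.13). Depth limits MAST4 most: in 3 of 4 comparisons by mutation it rests on fits without the filter, for which no alternative was run.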
